A study of Mus musculus with 6 samples.

Results

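The CXC chemokines described here are 7 genes, Cxcl1, Cxcl2, Cxcl3, Cxcl5, Cxcl9, Cxcl10 and Cxcl16, found by symbol among the 22548 gene symbols of the deposited expression tables. Cxcl1, Cxcl2, Cxcl3 and Cxcl5 are the neutrophil-attracting members, Cxcl9 and Cxcl10 are the interferon-linked members, and Cxcl16 stands outside both sets. With IL-33, transcripts of Cxcl2, Cxcl3, Cxcl1 and Cxcl10 were more abundant than in untreated eosinophils at 1 h and at 4 h, by a log2 change of at least 1. Cxcl5 passed that size at 4 h, and Cxcl9 and Cxcl16 did not pass it. With IL-4, none of the 7 genes passed it at either time. The interferon-linked members therefore did not move as a pair, since Cxcl10 was high with IL-33 and Cxcl9 was barely detected in any library.

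RNA was sequenced from eosinophils grown from low-density marrow cells of BALB/c mice, wild-type and aged 4 to 8 weeks. Over the first 4 days the medium held SCF (stem cell factor) and FLT3-ligand, both at 100 ng/ml, and from then to day 14 it held IL-5 at 10 ng/ml, so the cells of all 6 groups had been exposed to these 3 factors. On day 14 the cells received IL-33 at 10 ng/ml for 1 h or 4 h, IL-4 at 10 ng/ml for 1 h or 4 h, or neither cytokine (untreated, 1 h and 4 h), with 1 library in each group. The cells are a culture and not sorted blood or tissue eosinophils, and the labels do not say how many mice contributed to a library.

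Levels are given in FPKM, fragment counts divided by transcript length and by the size of the library, so that levels of different genes can be compared per length. Each of the 4 deposited tables holds 1 treated library and the untreated library of the same time, and the tables had been scaled separately, so every treated value stands beside the untreated value of its own table. A change is log2 of (FPKM + 1) in the treated library over (FPKM + 1) in the untreated one, and a gene was counted as higher or lower when this reached 1 or -1 with at least 1 FPKM in at least 1 of the libraries compared. This is a rule of size. With 1 library per group the spread between samples is unknown, and no p-value was computed. The read numbers and 95% intervals below were estimated from the steps that single reads leave in the low FPKM values. They cover counting error only.

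CXC chemokines are small secreted proteins whose paired N-terminal cysteines are separated by another residue, and they guide leukocytes through G-protein-coupled receptors. In mice, Cxcl1, Cxcl2, Cxcl3 and Cxcl5 act through Cxcr2 and are best known for drawing neutrophils into inflamed tissue. Cxcl9 and Cxcl10 act through Cxcr3 on activated T cells and NK cells and are widely used as markers of interferon exposure. Cxcl16 is made as a membrane-bound ligand of Cxcr6 that metalloproteases can release. IL-33 is an alarmin of the IL-1 family that signals through ST2 and MyD88 towards NF-kB, and IL-4 signals through its receptor towards STAT6.

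All 7 genes had a single transcript in the files. In the mm9 build, chromosome 5 carried 6 of them and chromosome 11 carried Cxcl16, listed at 70267736 to 70279701 in a locus that also holds Zmynd15. The 4 neutrophil-attracting genes lay within 146.64 kb of each other, with Cxcl5 (NM_009141) at 91188325 to 91190651, Cxcl3 (NM_203320) at 91215129 to 91217116, Cxcl1 (NM_008176) at 91320271 to 91322141 and Cxcl2 (NM_009140) at 91332925 to 91334964. Ppbp, Pf4 and Cxcl15 lay in the same stretch, between Cxcl5 and Cxcl1. Cxcl9 (NM_008599) was at 92750357 to 92757105, and Cxcl10 (NM_021274) was listed in a locus of 92760867 to 92843653 that it shared with Cxcl11 and Art3.

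Promoter sequences are shown because several of these genes moved together with IL-33. The 250 bases before the start of each gene were taken from RefSeq on GRCm38.p6, where 5 of the 7 members matched (all but Cxcl5 and Cxcl16). Each is printed 5′ to 3′ on the strand of the gene, ending at the base before the start. Capitals mark matches on either strand to the NF-kB pattern (GGG, any 3 bases, TTCC) and to the pattern of interferon-stimulated response elements (GAAA, any pair of bases, GAAA). Where matches overlap, the capitals run together.
Cxcl1 (chr5:90890995-90891244, plus strand): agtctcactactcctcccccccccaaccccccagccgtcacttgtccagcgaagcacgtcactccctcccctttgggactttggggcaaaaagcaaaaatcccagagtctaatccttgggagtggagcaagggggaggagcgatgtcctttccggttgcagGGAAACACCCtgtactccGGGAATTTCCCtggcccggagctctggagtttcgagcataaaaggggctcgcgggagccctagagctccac
Cxcl2 (chr5:90903649-90903898, plus strand): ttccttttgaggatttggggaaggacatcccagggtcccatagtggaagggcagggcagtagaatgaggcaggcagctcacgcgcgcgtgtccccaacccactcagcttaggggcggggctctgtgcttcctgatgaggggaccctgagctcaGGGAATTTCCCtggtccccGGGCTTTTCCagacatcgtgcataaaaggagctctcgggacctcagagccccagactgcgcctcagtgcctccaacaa
Cxcl3 (chr5:90785851-90786100, plus strand): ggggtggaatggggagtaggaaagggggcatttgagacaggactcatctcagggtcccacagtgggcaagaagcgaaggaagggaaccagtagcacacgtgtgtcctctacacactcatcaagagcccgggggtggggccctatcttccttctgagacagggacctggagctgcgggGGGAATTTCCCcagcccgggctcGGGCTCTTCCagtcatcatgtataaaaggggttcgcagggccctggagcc
Cxcl10 (chr5:92348890-92349139, minus strand): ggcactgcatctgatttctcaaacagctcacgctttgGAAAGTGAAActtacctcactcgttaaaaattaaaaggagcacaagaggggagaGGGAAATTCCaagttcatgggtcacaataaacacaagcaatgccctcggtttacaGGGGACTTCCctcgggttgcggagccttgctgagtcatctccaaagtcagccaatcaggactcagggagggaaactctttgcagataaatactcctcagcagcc
Cxcl9 (chr5:92328080-92328329, minus strand): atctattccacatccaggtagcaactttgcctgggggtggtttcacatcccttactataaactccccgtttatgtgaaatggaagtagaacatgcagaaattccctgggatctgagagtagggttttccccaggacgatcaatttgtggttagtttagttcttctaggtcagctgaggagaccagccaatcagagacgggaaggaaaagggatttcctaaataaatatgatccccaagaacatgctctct
Cxcl1, Cxcl2 and Cxcl3 all held GGGAATTTCC, at 71 to 62, 97 to 88 and 73 to 64 bases upstream of the start, and in each the opposite strand matched again 1 base closer to the start. Each held a further match, GGAAACACCC (read on the printed strand, the match lies on the opposite one) at 89 to 80 bases in Cxcl1, GGGCTTTTCC at 78 to 69 in Cxcl2 and GGGCTCTTCC at 50 to 41 in Cxcl3. Cxcl10 held GGGAAATTCC at 159 to 150 bases and GGGGACTTCC at 104 to 95, and it alone of the 5 held a match to the interferon pattern, GAAAGTGAAA at 213 to 204. The Cxcl9 stretch held neither pattern. Among 32851 promoters of the same length, 4.65% held at least 1 match to the NF-kB pattern and 2.98% at least 1 match to the interferon pattern. A match describes letters only, and binding was not measured here.

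**Figure D1:**
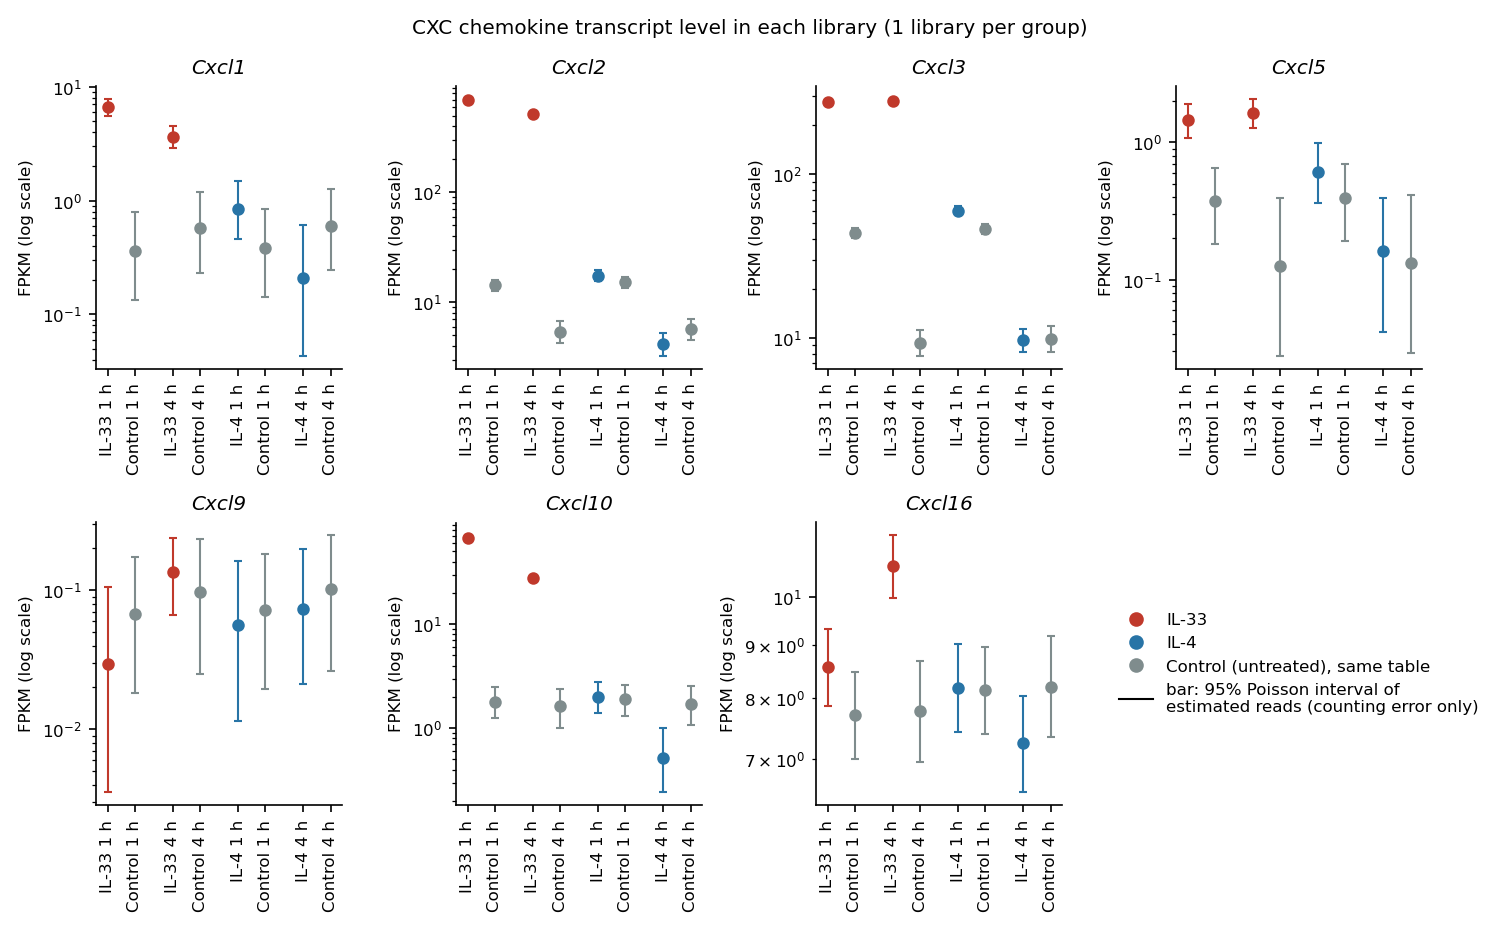
Transcript level of each CXC chemokine in FPKM on a log scale, with each treated library (IL-33 in red, IL-4 in blue) left of the untreated library of its own table (grey). Points are single libraries and bars are 95% Poisson intervals of the estimated reads, which cover counting error only. The IL-33 points of Cxcl1, Cxcl2, Cxcl3, Cxcl5 and Cxcl10 lie above all IL-4 and untreated points, while for Cxcl9 they are the lowest and the highest point, with bars that overlap those of the other libraries.

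Of the 7 genes, Cxcl2 had the highest level and the largest log2 change with IL-33 at both times. Cxcl2, also known as MIP-2, had 699 FPKM with IL-33 at 1 h, against 14.3 FPKM in untreated cells, and 516 FPKM with IL-33 at 4 h, against 5.39 FPKM in untreated cells. With IL-4 it had 17.4 FPKM at 1 h, against 15.2 FPKM in untreated cells, and 4.17 FPKM at 4 h, against 5.69 FPKM in untreated cells. Both IL-33 libraries thus stood far above the other 4, while the IL-4 and untreated libraries of a time did not differ beyond counting error (ratio 1.15, 0.977 to 1.35, at 1 h and 0.733, 0.524 to 1.02, at 4 h). The ratio of the FPKM values was 48.8 with IL-33 at 1 h (95% counting interval 43.4 to 55.1) and 95.7 at 4 h (76.9 to 121). The log2 changes were 5.51 and 6.34, ranks 24 of 10616 and 16 of 10803 genes from the top. The larger ratio at 4 h went with a lower untreated level, and the IL-33 level itself was not higher at 4 h than at 1 h.

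Cxcl3, a close relative of Cxcl2 with the same receptor, had the second highest level of the 7 genes with IL-33. It stood at 276 FPKM with IL-33 at 1 h, against 43.6 FPKM in untreated cells, and at 282 FPKM with IL-33 at 4 h, against 9.32 FPKM in untreated cells. With IL-4 it stood at 59.7 FPKM at 1 h, against 46.1 FPKM in untreated cells, and at 9.64 FPKM at 4 h, against 9.84 FPKM in untreated cells. The counting intervals of the IL-33 levels overlapped between the times (269 to 284 FPKM at 1 h, 275 to 289 FPKM at 4 h), while the untreated level was lower at 4 h. These levels come from single libraries in separately scaled tables. The ratio was 6.34 at 1 h (5.88 to 6.84) and 30.3 at 4 h (25.2 to 36.4), with log2 changes of 2.64 and 4.78. With IL-4 at 1 h the ratio of 1.29 had a counting interval of 1.18 to 1.42, which lies above 1, but the log2 change of 0.36 did not pass the rule of size. Of the 36-base stretches of Cxcl3, 7.65% also occur in Cxcl2, and of its 50-base stretches 6.31%. The read length is not known here, and reads that lie wholly within such shared sequence could come from either gene.

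Cxcl1, the mouse gene also called KC, gave far fewer transcripts than Cxcl2 and Cxcl3. It had 6.60 FPKM with IL-33 at 1 h, against 0.361 FPKM in untreated cells, and 3.63 FPKM with IL-33 at 4 h, against 0.571 FPKM in untreated cells. About 126 reads with IL-33 stood against 6 reads in untreated cells at 1 h, and 84 against 7 at 4 h. The ratios were 18.3 at 1 h (8.09 to 50.3) and 6.36 at 4 h (2.94 to 16.2), with log2 changes of 2.48 and 1.56. Cxcl1 reached 1 FPKM only in the IL-33 libraries, so it entered those comparisons through them. IL-4 gave 0.849 FPKM at 1 h, against 0.382 FPKM in untreated cells, and 0.208 FPKM at 4 h, against 0.603 FPKM in untreated cells. These values rest on 3 to 13 reads, and both counting intervals of the IL-4 ratio include 1.

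Cxcl5, known in mice as LIX, was the lowest of the neutrophil-attracting genes with IL-33. It had 1.44 FPKM with IL-33 at 1 h, against 0.370 FPKM in untreated cells, and 1.64 FPKM with IL-33 at 4 h, against 0.126 FPKM in untreated cells. The log2 change of 0.83 at 1 h missed the rule of size and that of 1.23 at 4 h passed it. The ratios were 3.89 at 1 h (2.06 to 8.51, 51 against 11 reads) and 13.1 at 4 h (3.98 to 60.2, 69 against 3 reads), so at 1 h too the counting interval lay above 1. Under IL-4, Cxcl5 had 0.605 FPKM at 1 h, against 0.392 FPKM in untreated cells, and 0.160 FPKM at 4 h, against 0.133 FPKM in untreated cells. Like Cxcl1, it reached 1 FPKM only with IL-33.

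Cxcl10, also known as IP-10, joined the genes with the largest changes with IL-33. It had 68.0 FPKM with IL-33 at 1 h, against 1.80 FPKM in untreated cells, and 27.9 FPKM with IL-33 at 4 h, against 1.63 FPKM in untreated cells. The ratios were 37.7 at 1 h (27.3 to 55.0) and 17.2 at 4 h (11.6 to 27.8), and the log2 changes of 4.62 and 3.46 ranked 38 and 69 from the top. Unlike Cxcl2 and Cxcl3, its ratio was smaller at 4 h, with nearly the same untreated level at both times. The other genes of its listed locus were low, with Art3 at 0.484 FPKM with IL-33 at 1 h, against 0.604 FPKM in untreated cells, and Cxcl11, another Cxcr3 ligand, at 0.626 FPKM with IL-33 at 1 h, against 0.231 FPKM in untreated cells.

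With IL-4, Cxcl10 had 2.02 FPKM at 1 h, against 1.91 FPKM in untreated cells, and 0.521 FPKM at 4 h, against 1.72 FPKM in untreated cells. The 4 h value rests on 9 reads with IL-4 and 23 in untreated cells, a ratio of 0.303 with a counting interval of 0.128 to 0.704. The log2 change of -0.84 did not pass the rule of size. With a pseudocount of 0.1 in place of 1 it was -1.55, which does pass.

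Cxcl9, also known as MIG, was close to the limit of detection throughout. It had 0.0295 FPKM with IL-33 at 1 h, against 0.0677 FPKM in untreated cells, and 0.136 FPKM with IL-33 at 4 h, against 0.0966 FPKM in untreated cells. Under IL-4 it had 0.0562 FPKM at 1 h, against 0.0717 FPKM in untreated cells, and 0.0733 FPKM at 4 h, against 0.102 FPKM in untreated cells. The IL-33 libraries gave the lowest and the highest of these levels. They correspond to 2 to 11 reads, and all 4 counting intervals of the ratio include 1. With IL-33 at 4 h the interval ran from 0.430 to 6.24, so a difference within that range was not detectable at this depth.

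Cxcl16 was present at similar levels in all libraries. It had 8.56 FPKM with IL-33 at 1 h, against 7.70 FPKM in untreated cells, and 10.7 FPKM with IL-33 at 4 h, against 7.77 FPKM in untreated cells. With IL-4 it had 8.19 FPKM at 1 h, against 8.15 FPKM in untreated cells, and 7.24 FPKM at 4 h, against 8.21 FPKM in untreated cells. Only the ratio with IL-33 at 4 h, 1.38, had a counting interval that left out 1 (1.21 to 1.57), and its log2 change was 0.42.

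**Figure D2:**
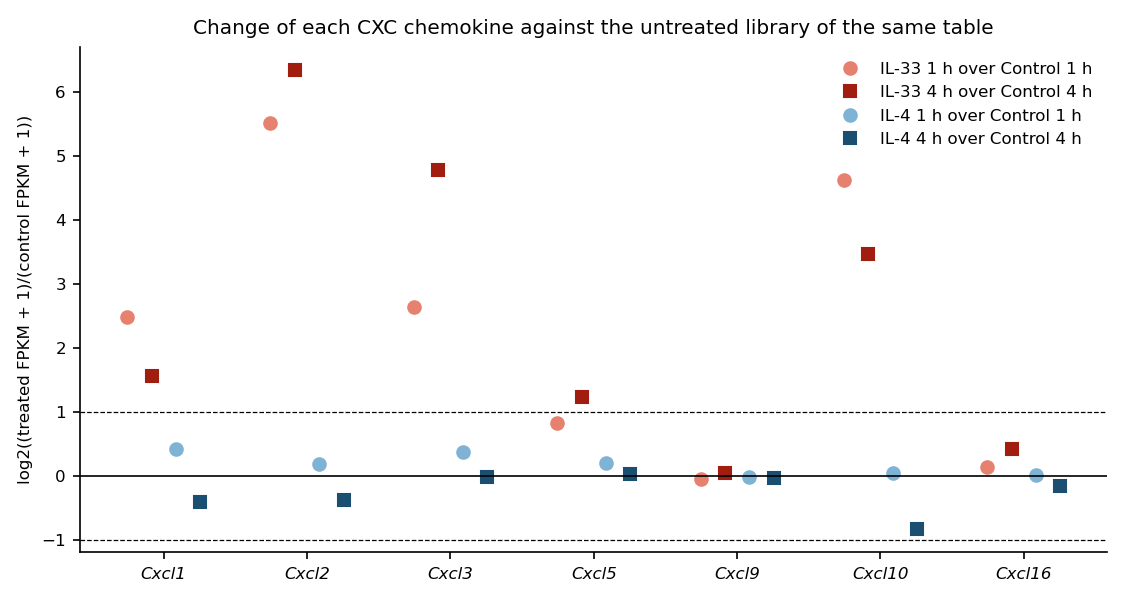
Log2 change of FPKM + 1 of each CXC chemokine, treated over untreated library of the same table, with dashed lines at 1 and -1. Light and dark red mark IL-33 at 1 h and 4 h, and light and dark blue IL-4 at 1 h and 4 h. Cxcl2 stands highest at both times with IL-33 (5.51 and 6.34), Cxcl3 is larger at 4 h than at 1 h, Cxcl10 and Cxcl1 are smaller at 4 h, and all IL-4 points lie between the dashed lines.

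Counted over the 7 members, IL-33 gave 4 higher at 1 h and 5 at 4 h, and none lower. The share among all genes compared was 2.36% higher and 0.669% lower at 1 h, and 4.15% higher and 1.38% lower at 4 h. The median log2 change of all 7 members was 2.48 at 1 h and 1.56 at 4 h, beside -0.01 and -0.03 over all genes compared. Of the 7, 6 passed the filter on low values at each time, Cxcl1 and Cxcl5 only through the IL-33 library, and Cxcl9 passed it nowhere. With IL-4, 0 of the 7 passed the rule of size at either time, where 0.828% of all genes at 1 h and 0.997% at 4 h did so in either direction. The median over the 7 was 0.19 at 1 h and -0.16 at 4 h with IL-4, and 4 of them passed the filter.

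The difference between the cytokines was taken as the IL-33 change minus the IL-4 change at the same time. Since both tables hold the same untreated library, the comparison shares it. By this measure IL-33 exceeded IL-4 for 4 members at 1 h and for 5 at 4 h, as it did for 2.34% and 3.66% of all genes compared. Cxcl2 differed by 5.33 at 1 h and 6.71 at 4 h, Cxcl10 by 4.57 and 4.30, Cxcl3 by 2.27 and 4.80, and Cxcl1 by 2.06 and 1.97. Cxcl5 differed by 0.63 at 1 h, short of the rule, and passed the rule at 4 h.

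Untreated cells themselves differed between the times for the most abundant neutrophil-attracting genes. Read from the untreated columns that accompany IL-4, Cxcl2 had 5.69 FPKM at 4 h and 15.2 FPKM at 1 h, and Cxcl3 had 9.84 FPKM at 4 h and 46.1 FPKM at 1 h. The log2 changes were -1.27 for Cxcl2 and -2.12 for Cxcl3, so 2 of the 7 members were lower at 4 h, where 1.56% of all genes were lower. For Cxcl2 the ratio was 0.376 (0.288 to 0.482) and for Cxcl3 0.213 (0.175 to 0.259). Cxcl10 (1.72 FPKM at 4 h, 1.91 FPKM at 1 h) and Cxcl16 (8.21 FPKM at 4 h, 8.15 FPKM at 1 h) did not show this difference, and the intervals of Cxcl1, Cxcl5 and Cxcl9 include 1. This comparison runs across separately scaled tables.

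The size of the IL-33 change in Cxcl2 and Cxcl3 depends on which untreated library is used. Set against the untreated library of 4 h, the 1 h IL-33 library gave log2 changes of 6.78 for Cxcl2 and 4.75 for Cxcl3. Set against the untreated library of 1 h, the 4 h IL-33 library gave 5.08 and 2.67. Both genes stayed past the rule of size with either, whereas Cxcl5 was past it at 1 h against the other untreated library (1.12) and not at 4 h (0.95).

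The mix of CXC ligand transcripts changed with IL-33. Summed over 15 CXC ligand genes, the level was 1253 FPKM with IL-33 at 1 h, against 239 FPKM in untreated cells, and 1043 FPKM with IL-33 at 4 h, against 216 FPKM in untreated cells. Cxcl2 and Cxcl3 together made up 77.9% of that sum with IL-33 at 1 h, against 24.3% in untreated cells, and 76.5% with IL-33 at 4 h, against 6.81% in untreated cells. Cxcl3 was the more abundant of the pair without IL-33 and Cxcl2 the more abundant with it. The level of Cxcl2 over that of Cxcl3 was 2.53 with IL-33 at 1 h, against 0.329 in untreated cells, and 1.83 with IL-33 at 4 h, against 0.579 in untreated cells. With IL-4 the same ratio was 0.292 at 1 h, against 0.329 in untreated cells, and 0.433 at 4 h, against 0.579 in untreated cells.

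Set beside each other, the neutrophil-attracting members summed to 984 FPKM with IL-33 at 1 h, against 58.6 FPKM in untreated cells, and to 804 FPKM with IL-33 at 4 h, against 15.4 FPKM in untreated cells. The interferon-linked members summed to 68.0 FPKM with IL-33 at 1 h, against 1.87 FPKM in untreated cells, and to 28.1 FPKM with IL-33 at 4 h, against 1.72 FPKM in untreated cells. Nearly all of the second sum was Cxcl10. With IL-4 the neutrophil-attracting sum was 78.6 FPKM at 1 h, against 62.1 FPKM in untreated cells, and 14.2 FPKM at 4 h, against 16.3 FPKM in untreated cells, and the interferon-linked sum was 2.07 FPKM at 1 h, against 1.98 FPKM in untreated cells, and 0.595 FPKM at 4 h, against 1.82 FPKM in untreated cells.

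**Figure D3:**
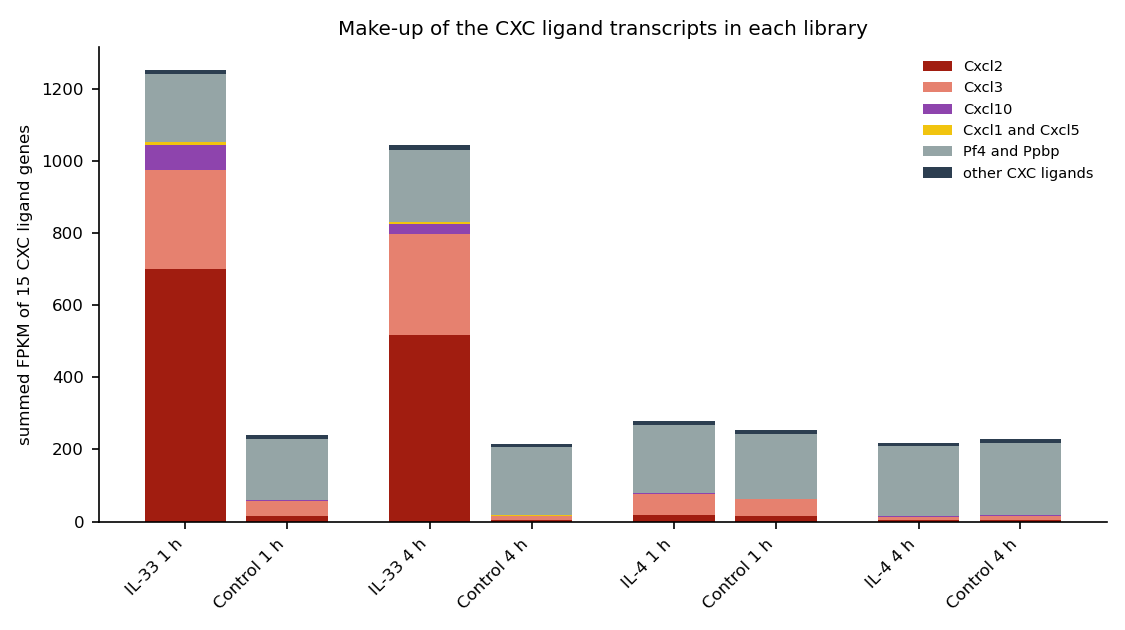
Summed FPKM of 15 CXC ligand genes in each library, split by gene, with each treated library left of the untreated library of its table. With IL-33 the bars reach 1253 FPKM at 1 h and 1043 FPKM at 4 h and consist mainly of Cxcl2 and Cxcl3, while the other bars lie between 216 and 279 FPKM and consist mainly of Pf4 and Ppbp.

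None of the other 8 CXC ligands passed the rule of size in any of the comparisons. With IL-33, 5 of the 8 were under the filter on low values at each time, and 3.03% of all genes at 1 h and 5.53% at 4 h passed the rule in either direction. That share was 0.828% and 0.997% with IL-4 and 3.01% and 4.73% for IL-33 against IL-4. Between the untreated libraries it was 2.44%. The counts of 0 therefore say little about these ligands. Pf4 and Ppbp, the platelet chemokine genes that sit between Cxcl5 and Cxcl3, were abundant and differed by less than the rule of size. Some of their ratios still had counting intervals that left out 1. For Pf4 this was IL-33 at 1 h (1.14, 1.05 to 1.24). For Ppbp it was IL-33 at 1 h (1.10, 1.02 to 1.19) and 4 h (1.21, 1.10 to 1.32), and IL-4 at 1 h (1.09, 1.01 to 1.18). Between the untreated libraries, 4 h over 1 h, the ratio was 1.27 (1.16 to 1.39) for Pf4 and 0.842 (0.767 to 0.925) for Ppbp. Pf4 had 124 FPKM with IL-33 at 1 h, against 108 FPKM in untreated cells, and 138 FPKM both with IL-33 and without it at 4 h. Ppbp had 66.4 FPKM with IL-33 at 1 h, against 60.4 FPKM in untreated cells, and 61.5 FPKM with IL-33 at 4 h, against 51.0 FPKM in untreated cells. With IL-4, Pf4 had 119 FPKM at 1 h, against 115 FPKM in untreated cells, and 137 FPKM at 4 h, against 146 FPKM in untreated cells, and Ppbp had 69.7 FPKM at 1 h, against 63.9 FPKM in untreated cells, and 59.0 FPKM at 4 h, against 53.8 FPKM in untreated cells. So with IL-33 at 4 h, genes past the rule of size lay on both sides of Ppbp and Pf4, which were not. On the outer side this rests on Cxcl5 alone. Cxcl5 missed the rule at 1 h (0.83) and passed it at 4 h (1.23) from 69 against 3 reads. That call was lost with a pseudocount of 5.

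Cxcl14, a homeostatic chemokine, had 1.24 FPKM with IL-33 at 1 h, against 0.829 FPKM in untreated cells, and 0.695 FPKM with IL-33 at 4 h, against 1.99 FPKM in untreated cells. With IL-4 it had 0.870 FPKM at 1 h, against 0.877 FPKM in untreated cells, and 0.701 FPKM at 4 h, against 2.10 FPKM in untreated cells. Its log2 changes at 4 h, -0.82 with IL-33 and -0.86 with IL-4, are measured against the same untreated library. Cxcl11, Cxcl12 and Cxcl15 stayed under 1 FPKM in every library, and Cxcl13 and Cxcl17 are listed at 0 in all of them.

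**Figure D4:**
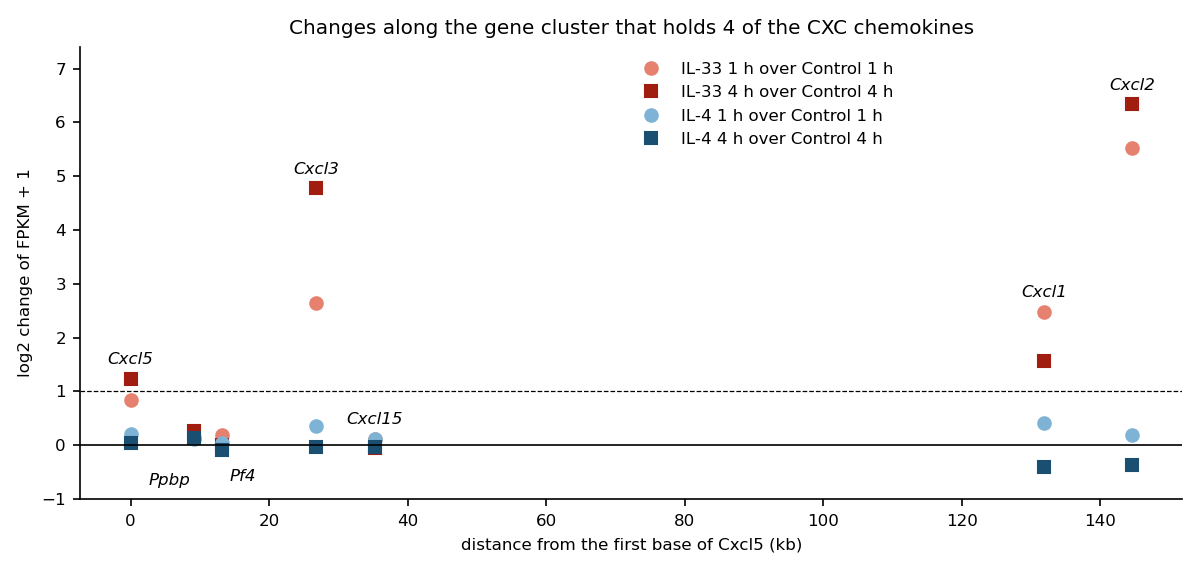
Log2 change of FPKM + 1 (treated over untreated library of the same table) of the 7 genes of the chromosome 5 cluster, against their distance in kb from the first base of Cxcl5. With IL-33 at 4 h, Cxcl5, Cxcl3, Cxcl1 and Cxcl2 lie above the dashed line, drawn at a log2 change of 1, while Ppbp, Pf4 and Cxcl15 between them lie near 0 with either cytokine. Cxcl15 was under 1 FPKM in every library, so the added 1 FPKM holds its change near 0 and the point says little.

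Of 8 CXC receptor genes, 0 passed the rule of size in any of the comparisons. With IL-33, 4 of the 8 were under the filter at each time, and a count of 0 is close to the share over all genes (3.03% at 1 h, 5.53% at 4 h). That share was 0.828% and 0.997% with IL-4 and 3.01% and 4.73% for IL-33 against IL-4. Between the untreated libraries it was 2.44%. The counts of 0 say little about these receptors. Cxcr4, the Cxcl12 receptor, was the most abundant, at 698 FPKM with IL-33 at 1 h, against 531 FPKM in untreated cells, and 454 FPKM with IL-33 at 4 h, against 426 FPKM in untreated cells. Cxcr2, the receptor of the neutrophil-attracting members, had 12.6 FPKM with IL-33 at 1 h, against 14.6 FPKM in untreated cells, and 21.6 FPKM with IL-33 at 4 h, against 21.2 FPKM in untreated cells. With IL-4, Cxcr2 had 20.8 FPKM at 1 h, against 15.4 FPKM in untreated cells, and 32.2 FPKM at 4 h, against 22.3 FPKM in untreated cells. Those ratios, 1.35 (1.23 to 1.47) and 1.44 (1.33 to 1.56), are above 1 beyond counting error but short of the rule of size.

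Cxcr3, the receptor of Cxcl9 and Cxcl10, had 2.01 FPKM with IL-33 at 1 h, against 1.53 FPKM in untreated cells, and 0.963 FPKM with IL-33 at 4 h, against 2.73 FPKM in untreated cells. The 4 h log2 change was -0.93, just short of the rule, with a ratio of 0.353 (0.234 to 0.516) from 45 and 68 reads. With IL-4 it had 1.59 FPKM at 1 h, against 1.62 FPKM in untreated cells, and 1.73 FPKM at 4 h, against 2.88 FPKM in untreated cells. Cxcr6, the Cxcl16 receptor, had 2.71 FPKM with IL-33 at 1 h, against 2.47 FPKM in untreated cells, and 3.19 FPKM with IL-33 at 4 h, against 3.42 FPKM in untreated cells. With IL-4, Cxcr6 had 2.65 FPKM at 1 h, against 2.61 FPKM in untreated cells, and 5.73 FPKM at 4 h, against 3.61 FPKM in untreated cells. For Cxcr4, the IL-4 levels were 551 FPKM at 1 h, against 562 FPKM in untreated cells, and 435 FPKM at 4 h, against 450 FPKM in untreated cells. Cxcr1, Cxcr5, Cxcr7 and Darc stayed under 1 FPKM.

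Genes known to respond to NF-kB were mostly higher in the same IL-33 libraries. Of 17 such genes, IL-33 gave 15 higher at 1 h and 14 at 4 h, with median log2 changes of 2.77 at both times. IL-4 gave 0 higher or lower. The share of all genes past the rule upwards was 2.36% (IL-33, 1 h) and 4.15% (IL-33, 4 h). In either direction it was 0.828% (IL-4, 1 h) and 0.997% (IL-4, 4 h), so that count of 0 says little about 17 genes. This list was chosen with earlier results of these data known, so its counts are not an independent test. The part of NF-kB in the chemokine levels was not tested. Nfkbiz, an atypical nuclear member of the IkB family, had 366 FPKM with IL-33 at 1 h, against 4.30 FPKM in untreated cells, and 57.3 FPKM with IL-33 at 4 h, against 2.65 FPKM in untreated cells. The cytokine genes Il6 and Tnf stood at 217 and 339 FPKM with IL-33 at 1 h, against 7.31 and 8.59 FPKM in untreated cells, and at 336 and 177 FPKM with IL-33 at 4 h, against 4.75 and 7.35 FPKM in untreated cells. Il1b had 216 FPKM with IL-33 at 1 h, against 31.4 FPKM in untreated cells, and 243 FPKM with IL-33 at 4 h, against 5.95 FPKM in untreated cells. Il1b was also the single gene of this list past the rule of size between the untreated libraries. It was lower at 4 h (6.29 FPKM) than at 1 h (33.3 FPKM), as Cxcl2 and Cxcl3 were.

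Some genes of the interferon axis, from interferons and their receptors to interferon-stimulated genes, passed the rule of size in the libraries in which Cxcl10 was high. Of 24 such genes, IL-33 gave 2 higher and 1 lower at 1 h and 2 higher and none lower at 4 h, and 0 passed the rule with IL-4. Over all genes, 2.36% were higher and 0.669% lower at 1 h, and 4.15% were higher at 4 h, so the counts of higher genes with IL-33 are not below the share of all genes. For IL-4 the share of all genes in either direction was 0.828% (1 h) and 0.997% (4 h). The median of the members that passed the filter (21 at 1 h, 22 at 4 h) was 0.02 at both times with IL-33. The guanylate-binding protein gene Gbp2 had 11.8 FPKM with IL-33 at 1 h, against 4.42 FPKM in untreated cells, and 17.2 FPKM with IL-33 at 4 h, against 3.00 FPKM in untreated cells. Gbp3 was higher at 4 h (2.75 FPKM with IL-33, 0.849 FPKM in untreated cells) and the interferon receptor gene Ifnar1 at 1 h (25.1 FPKM with IL-33, 11.6 FPKM in untreated cells). Usp18, which removes ISG15 from proteins and restrains interferon signalling, was lower at 1 h, with 19.9 FPKM with IL-33 and 44.9 FPKM in untreated cells. The list held the interferon genes Ifng and Ifnb1 only, at no more than 0.242 and 0.168 FPKM in any library. Other interferon genes were not examined, and a part of interferon in the Cxcl10 level was not tested. Between the untreated libraries, 3 of the 24 were lower at 4 h, where 1.56% of all genes were lower. They were Irf7, Isg15 and Rsad2, which were singled out after their values were seen. The median of the 20 that passed the filter was -0.46, beside 0.10 over all genes compared.

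Chemokine transcripts of this kind are known to be short-lived, and 6 genes of mRNA decay were examined for that reason. Of them 2 were higher with IL-33 at both times, where 2.36% of all genes were higher at 1 h and 4.15% at 4 h. None was higher or lower with IL-4, where 0.828% of all genes at 1 h and 0.997% at 4 h passed the rule in either direction. That count of 0 says little about 6 genes. Zc3h12a, the Regnase-1 endonuclease gene, had 172 FPKM with IL-33 at 1 h, against 6.71 FPKM in untreated cells, and 91.3 FPKM with IL-33 at 4 h, against 7.45 FPKM in untreated cells. Zfp36l1, a relative of tristetraprolin, had 17.8 FPKM with IL-33 at 1 h, against 7.64 FPKM in untreated cells, and 28.4 FPKM with IL-33 at 4 h, against 10.5 FPKM in untreated cells. The tristetraprolin gene Zfp36 was abundant in all libraries and did not pass the rule (145 FPKM with IL-33 at 1 h, 95.5 FPKM in untreated cells), nor did Zfp36l2 (74.0 FPKM with IL-33 at 1 h, 113 FPKM in untreated cells). Of the metalloproteases that can release membrane-bound CXCL16, Adam17 was higher with IL-33, at 71.1 FPKM at 1 h, against 26.4 FPKM in untreated cells, and 87.5 FPKM at 4 h, against 24.8 FPKM in untreated cells. Adam10 was not, at 45.4 FPKM with IL-33 at 1 h, against 43.1 FPKM in untreated cells, and 49.8 FPKM with IL-33 at 4 h, against 42.6 FPKM in untreated cells.

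Genes with the most similar pattern were named by the root mean square difference of the 4 log2 changes, among 7586 genes, for the 4 members that passed the filter in every comparison. For Cxcl2 they were Il6 (0.63), Tnf (1.01) and Irg1 (1.11). For Cxcl3 they were the type 2 cytokine gene Il13 (0.17), Il1b (0.21) and the lectin receptor gene Clec4e (0.34). For Cxcl10 they were Zc3h12a (0.49), Tnfaip3 (0.52) and Nfkbia (0.57), genes known to restrain NF-kB signalling or its target mRNAs. For Cxcl16, which passed the rule of size nowhere, they were Prdx1 (0.02), Manbal (0.03) and Tpd52 (0.05). Cxcl2, Cxcl3 and Cxcl10 were not each other's closest genes. The difference was 1.65 between Cxcl2 and Cxcl3, 1.53 between Cxcl2 and Cxcl10 and 1.27 between Cxcl3 and Cxcl10. Most genes changed little, so any gene with a large IL-33 change ranks high for another such gene. The ranks below are therefore no evidence of likeness among the members. For Cxcl2, Cxcl10 ranked 8 and Cxcl3 ranked 10. For Cxcl10, Cxcl3 ranked 26 and Cxcl2 ranked 44. For Cxcl3, Cxcl10 ranked 41 and Cxcl2 ranked 94. Cxcl16 stood further down, at 985 for Cxcl2, 974 for Cxcl3 and 954 for Cxcl10. In the order of Cxcl16, those genes stood at the end, with Cxcl2 at 7587, Cxcl3 at 7576 and Cxcl10 at 7581. All changes at a given time share the untreated library of that time.

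The libraries carried the defining transcripts of eosinophils, with 9 of 9 marker genes at 1 FPKM or more. Their summed level was 63322 FPKM with IL-33 at 1 h, against 64235 FPKM in untreated cells, and 57877 FPKM with IL-33 at 4 h, against 61352 FPKM in untreated cells. With IL-4 it was 67554 FPKM at 1 h, against 67985 FPKM in untreated cells, and 71711 FPKM at 4 h, against 64764 FPKM in untreated cells. Markers of other cells were present too, and in bulk RNA fewer cells of a type cannot be told apart from less RNA per cell.

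Neutrophil markers (11 of 12 found, 11 at 1 FPKM or more, Cxcr2 among them) summed to 7341 FPKM with IL-33 at 1 h, against 6838 FPKM in untreated cells, and to 6171 FPKM with IL-33 at 4 h, against 7889 FPKM in untreated cells. At 4 h their median log2 change with IL-33 was -0.35, and none of them passed the rule of size in any comparison with untreated cells. Over all genes, 3.03% with IL-33 at 1 h and 5.53% at 4 h passed it in either direction, and 0.828% and 0.997% with IL-4. The absence of calls among 11 genes therefore says little. With IL-4 the neutrophil markers summed to 7322 FPKM at 1 h, against 7237 FPKM in untreated cells, and to 8303 FPKM at 4 h, against 8328 FPKM in untreated cells. Most of the sum was S100a9 and S100a8, at 3364 and 2517 FPKM with IL-33 at 1 h and 2910 and 2004 FPKM with IL-33 at 4 h. The part of neutrophils in the chemokine levels was not tested.

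Monocyte, macrophage and dendritic cell markers (11 of 12 found, 11 at 1 FPKM or more) summed to 2987 FPKM with IL-33 at 1 h, against 2845 FPKM in untreated cells, and to 2725 FPKM with IL-33 at 4 h, against 2145 FPKM in untreated cells. Among them, Cd14 was higher with IL-33 at 1 h (178 FPKM, 86.5 FPKM in untreated cells), and Cd14, Csf1r and Mrc1 at 4 h. With IL-4 the list summed to 3039 FPKM at 1 h, against 3011 FPKM in untreated cells, and to 2140 FPKM at 4 h, against 2265 FPKM in untreated cells. Mrc1 was higher with IL-4 at 4 h (15.1 FPKM, 5.12 FPKM in untreated cells), where 0.646% of all genes were higher.

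Platelet markers, a list that includes Pf4 and Ppbp, summed to 291 FPKM with IL-33 at 1 h, against 281 FPKM in untreated cells, and to 279 FPKM with IL-33 at 4 h, against 300 FPKM in untreated cells. Mast cell and basophil markers (5 of 8 at 1 FPKM or more, Mcpt4 and Tpsb2 at 0 in at least 1 library) summed to 160 FPKM with IL-33 at 1 h, against 168 FPKM in untreated cells, and to 178 FPKM with IL-33 at 4 h, against 218 FPKM in untreated cells. Lymphoid markers (3 of 6 at 1 FPKM or more, Cd3e at 0 in at least 1 library) summed to 16.5 FPKM with IL-33 at 1 h, against 17.4 FPKM in untreated cells, and to 9.41 FPKM with IL-33 at 4 h, against 14.0 FPKM in untreated cells. Stromal and endothelial markers, a list that includes Cxcl12, summed to 82.1 FPKM with IL-33 at 1 h, against 76.7 FPKM in untreated cells, and to 118 FPKM with IL-33 at 4 h, against 81.7 FPKM in untreated cells. Most of this sum was the single gene Pecam1, at 72.2 FPKM with IL-33 at 1 h, against 71.7 FPKM in untreated cells. At 4 h Pecam1 had 116 FPKM with IL-33, against 79.8 FPKM, and the other 7 of the 8 genes were under the filter on low values. No gene of these 4 lists passed the rule of size with IL-33. Over all genes, 3.03% at 1 h and 5.53% at 4 h passed it in either direction, so this absence says little about the lists.

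With IL-4, lymphoid markers summed to 15.3 FPKM at 1 h, against 18.4 FPKM in untreated cells, and to 16.0 FPKM at 4 h, against 14.8 FPKM in untreated cells. Platelet markers summed to 300 FPKM with IL-4 at 1 h, against 298 FPKM in untreated cells, and to 311 FPKM at 4 h, against 316 FPKM in untreated cells. Mast cell and basophil markers summed to 189 FPKM with IL-4 at 1 h, against 178 FPKM in untreated cells, and to 228 FPKM at 4 h, against 230 FPKM in untreated cells. Stromal and endothelial markers summed to 87.8 FPKM with IL-4 at 1 h, against 81.2 FPKM in untreated cells, and to 93.4 FPKM at 4 h, against 86.2 FPKM in untreated cells. Of these 8 genes, 3 were higher with IL-4 at 1 h, where 0.47% of all genes were higher. They were Col1a1 (2.93 FPKM, 0.443 FPKM in untreated cells), Col1a2 (3.20 and 0.921 FPKM) and Sparc (4.08 and 1.31 FPKM). Col1a1 and Col1a2 passed the filter only through the IL-4 library. Their log2 changes with IL-33 at 1 h were 0.87 and 0.83, and that of Sparc was 0.59, all short of the rule. Again most of the sum was Pecam1, at 74.1 FPKM with IL-4 at 1 h, against 75.9 FPKM, and 90.8 FPKM at 4 h, against 84.3 FPKM. The part of these cells in the chemokine levels was not tested.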

How the data were processed

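The values analysed were FPKM, deposited by the authors for 28702 transcripts in 4 tables that each pair 1 treated library with untreated cells of that time. Per the submitters' processing notes, TopHat 1.4.1 and Cuffdiff 1.2.1 were used with the mm9 build. For strand setting and read length, nothing was given in the sources used here. The tables' own p-values compare the reads of 2 libraries and were not used. The untreated library had 0.945 times its IL-4 table values in the IL-33 table at 1 h and 0.947 times at 4 h (100% of genes within 0.1%), so changes were taken within tables.

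The design had assumed values per gene, while the files held them per transcript, and transcripts of a symbol were summed, which for 3869 of 22548 symbols meant several transcripts. Where a symbol lay at several loci (232 symbols), 1 locus was kept. The rule of size, a pseudocount of 1 and a minimum of 1 FPKM are as given above. The members and gene lists were chosen with earlier results of these data known. The 7 members were named in every library, CXC ligands and receptors where they reached 1 FPKM, up to 4 genes of other lists by largest change, and 3 genes of most similar pattern among genes that reached 5 FPKM.

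Depth was estimated, since the files give no counts. The low FPKM values of 14305 single-transcript genes, multiplied by transcript length less 205 bases (lengths from the GRCm38 transcripts), fall into steps of 1 read. Of values worth 0.5 to 4.5 reads, 72.0% to 74.3% lay within 0.15 of a whole number, where an even spread gives 30%. On the scale of Cuffdiff's normalisation this gave about 15400000 to 30800000 reads per library, with the IL-33 library of 4 h at 1.90 times its untreated library and the others at 0.967 to 1.25 times. Levels have exact Poisson intervals and ratios exact conditional binomial ones, at 95%, and floors and intervals cover counting error only. Because only part of the values came out whole, the reads are estimates and no count test was run. Cxcl2 and Cxcl3 share 75 stretches of 36 bases, 6.98% of those of Cxcl2 and 7.65% of those of Cxcl3, and no other pair of members shares any. Calculations used Python 3.11.15 with pandas 2.3.3, numpy 2.4.6 and scipy 1.17.1, and figures matplotlib 3.10.9. The scripts were checked on simulated data.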

Additional observations from a re-analysis of the deposited data

Results flagged for a closer look

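Several genes had changes of opposite sign at 4 h and at 1 h with the same cytokine. With 1 library per group the difference was not tested in any of them, and none of the changes involved passed the rule of size. With IL-4, the 4 h change minus the 1 h change was -0.89 for Cxcl10 (-0.84 at 4 h, 0.05 at 1 h), -0.56 for Cxcl2 (-0.37 at 4 h, 0.19 at 1 h), -0.39 for Cxcl3 (-0.03 at 4 h, 0.36 at 1 h), -0.17 for Cxcl16 and -0.14 for Pf4. With IL-33 it was -1.18 for Cxcr3 (-0.93 at 4 h, 0.25 at 1 h), -1.11 for Cxcl14 (-0.82 at 4 h, 0.29 at 1 h), 0.23 for Cxcr2, -0.19 for Pf4 and -0.17 for Cxcr6. The counting intervals of the Cxcl2 ratio with IL-4 include 1 at both times, and that of Cxcl10 leaves out 1 at 4 h (0.128 to 0.704) and includes it at 1 h (0.649 to 1.74).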

How the results depend on the processing

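Over the 4 comparisons with untreated cells, the 9 calls of members (4 with IL-33 at 1 h, 5 at 4 h) were kept without a filter, with changes centred on the median of all genes and with the highest transcript only. A pseudocount of 0.1 kept 9 and added Cxcl5 with IL-33 at 1 h and Cxcl10 as 1 lower member with IL-4 at 4 h (main count 0). A pseudocount of 5, or a minimum of 5 FPKM, left 3 of 5 with IL-33 at 4 h and 3 of 5 for IL-33 against IL-4 at 4 h, losing Cxcl1 and Cxcl5. With the pseudocount of 5, IL-33 against IL-4 at 1 h kept 3 of 4, losing Cxcl1 (0.99, reported value 2.06). The pseudocount of 5 also left 1 of 2, Cxcl3, between the untreated libraries. Against the untreated library of the other time, IL-4 gave 2 higher members at 1 h and 2 lower at 4 h, Cxcl2 and Cxcl3 both times, where the matched library gave 0. Of 329 single-gene values over the alternatives, 278 moved by no more than the 95% counting error of the reported value, 51 by more, and 0 with a call changed sign. Over all genes, the count past the rule moved by over 1.5 times against the untreated library of the other time (IL-33 at 1 h 778, with the matched library 322; IL-4 295 against 88 at 1 h and 280 against 108 at 4 h). It did so with a pseudocount of 5 (373 against 597 with IL-33 at 4 h, 321 against 519 for IL-33 against IL-4 at 4 h, 146 against 264 between the untreated libraries), with one of 0.1 (183 with IL-4 at 4 h, 459 between the untreated libraries) and with the highest transcript only (138 with IL-4 at 1 h, 172 at 4 h). Cxcl9 and, with IL-4, Cxcl1 and Cxcl5 rest on 17 reads or fewer in a library, so depth limits what can be said of them. No paired analysis was possible because each group had 1 library.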
